A study of Mus musculus with 13 samples.

Results

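The 41 genes described here encode enzymes of the urea cycle and of amino acid breakdown in mouse liver. They were taken from a list of symbols and matched to the liver table by symbol alone, and all 41 were found among its 11779 genes. Liver RNA came from Balb/c mice, 3 given GalNAc-conjugated antisense oligonucleotides (ASOs) against the long non-coding RNA LL35, also named Falcor, and 3 given a GalNAc-conjugated control ASO against firefly luciferase (Luc). GalNAc is a sugar that directs its cargo to hepatocytes. The livers were collected 5 days after injection. The labels describe the LL35 ASOs as a mix of 5, and the text of the study also gives 5 GalNAc conjugates. The study's list of ASOs for mice, as read here, names fewer. The labels give 150 mg/kg for each LL35 ASO, while the methods of the study give that dose as the total of the mix. No dose was read from the labels for the Luc ASO livers. The age and sex of the mice are not given in the sources used here. The other 7 libraries of the series, from the hepatocyte line AML12, were not analysed here.

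For each gene, the level used is the mean normalized count that the authors deposited, a single value over the compared liver libraries. It holds LL35 ASO and Luc ASO livers together. The other numbers in the table are the authors' own comparison of these groups and were not used, so the effect of LL35 depletion on these genes is not described here. There is no value for a single mouse, so the levels carry no error, no order between neighbouring genes could be tested, and the number of reads behind each mean is unknown. Levels of different genes were compared per kilobase of coding length, the longest coding sequence of each gene in GENCODE release M21.

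The liver turns the nitrogen of amino acids into urea. Transaminases and glutamate dehydrogenase collect that nitrogen as glutamate, aspartate and ammonia, and the urea cycle joins ammonia and aspartate nitrogen into arginine, from which urea is released. The carbon skeletons are broken down by separate chains of enzymes, several of which are made mainly in hepatocytes. In bulk liver, fewer cells of a type and less RNA per cell cannot be told apart.

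The labelled tissue was checked against marker genes. Of 8 hepatocyte markers, 7 were listed, and Alb, which encodes serum albumin, had the highest mean normalized count of the table at 1217472, or 10.8% of the sum over all listed genes. Transferrin was looked for as Tf and is listed as Trf. The 6 Kupffer cell, 5 sinusoidal endothelial and 5 stellate cell markers were all listed, with mean normalized counts between 51.8 for Des and 2171 for Stab2. Of the 5 cholangiocyte markers, Sox9 and Spp1 were listed, and none of the 3 kidney tubule or 3 skeletal muscle markers was. The lowest mean normalized count in the table was 15.6.

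Most of the 41 genes stood high among the listed liver genes. By mean normalized count, their median was 2817 against 235 over all listed genes, and the median member stood at the 95.5th percentile. The top 10% of listed genes held 30 members, or 73.2% of them, and the top 1% held 7. Per kilobase of coding length, the median was 1994 against 168 over the 11384 listed genes with a coding length. On that scale 27 members stood in the top 10% and all 41 lay above the median, from Sdsl at 223 to Cps1 at 18942. Together the members made up 2.31% of the summed mean normalized counts of the table.

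**Figure D1:**
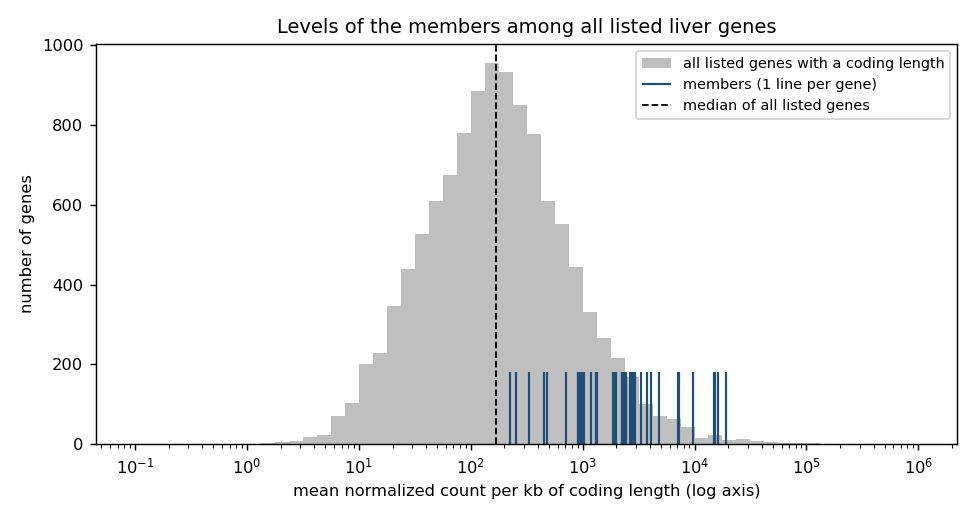
Histogram of the mean normalized count per kilobase of coding length (log axis) for the 11384 listed genes with a coding length, with 1 blue line for each of the 41 members and a dashed line at the median of all listed genes, 168. The members' lines run from 223 to 18942, all to the right of the dashed line.

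The urea cycle genes were the most abundant group. Cps1, which makes carbamoyl phosphate from ammonia and is the entry step of the cycle in the mitochondrion, had a mean normalized count of 85238, the rank 7 among all listed genes. It alone made up 32.6% of the members' summed count and 67.3% of that of the 6 urea cycle genes. Cps1 also has the longest coding sequence of the members, 4500 bases, and per kilobase its share of the urea cycle sum was 34.2%. Arg1, the arginase that releases urea, had 16319 per kilobase of coding length, next to the 18942 of Cps1. On the other scales Arg1 lay further below Cps1, at 7097 against 15344 per kilobase of exon length and 15813 against 85238 by count.

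Of the cytosolic enzymes between them, Ass1, which joins citrulline and aspartate, had 9702 per kilobase of coding length, and Asl, which splits argininosuccinate into arginine and fumarate, had 7058. Otc, the mitochondrial enzyme that forms citrulline, was lower, at 2873 per kilobase. The ratio of Cps1 to Otc was 6.59 on this scale, 21.3 per kilobase of exon length and 27.9 by count. Nags, which makes the N-acetylglutamate that activates carbamoyl phosphate synthetase, had only 454 per kilobase, 38th of the 41 members. Cps1 exceeded it by 41.8 times on this scale, by 60.7 times per kilobase of exon length and by 119 times by count. The gene of the regulator thus lay below those of the catalytic steps, which ranged from 2873 to 18942 per kilobase of coding length. The nearest of them was Otc. Nags had 253 against 719 for Otc per kilobase of exon length, and 717 against 3051 by count.

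The listed partner genes of the cycle were also abundant. Slc25a15, the mitochondrial ornithine carrier, had 6707 per kilobase of coding length, and Slc25a13, the aspartate and glutamate carrier citrin, had 2435. Oat, which passes ornithine on to glutamate, had 6314. Car5a, the mitochondrial carbonic anhydrase that supplies bicarbonate, was the lowest of the 5 listed partners at 792. Per kilobase of exon length Slc25a15 had 1076 and Slc25a13 had 1300, the reverse of their order per kilobase of coding length. Slc25a2 and Arg2 are not among the genes analysed here.

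Among the genes of transamination and glutamate, Glud1, glutamate dehydrogenase, had the highest level, 7250 per kilobase of coding length. The alanine transaminases Gpt2, which is mitochondrial, and Gpt, which is cytosolic, had 4805 and 2325. The aspartate transaminases Got1, cytosolic, and Got2, mitochondrial, had 4094 and 2464. All 5 of these genes stood above the 95th percentile of listed genes per kilobase. Gls2, the liver glutaminase, had 1196 and was the lowest of the 6. Its counterpart Glul, glutamine synthetase, had 8661. Of the partner transporters, Slc38a3, which carries glutamine, had 10158, Slc7a2, which carries cationic amino acids such as arginine, had 9113, and Slc1a2, a glutamate carrier, had 1935. By count Slc7a2 exceeded Slc38a3, at 18427 against 15389.

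**Figure D2:**
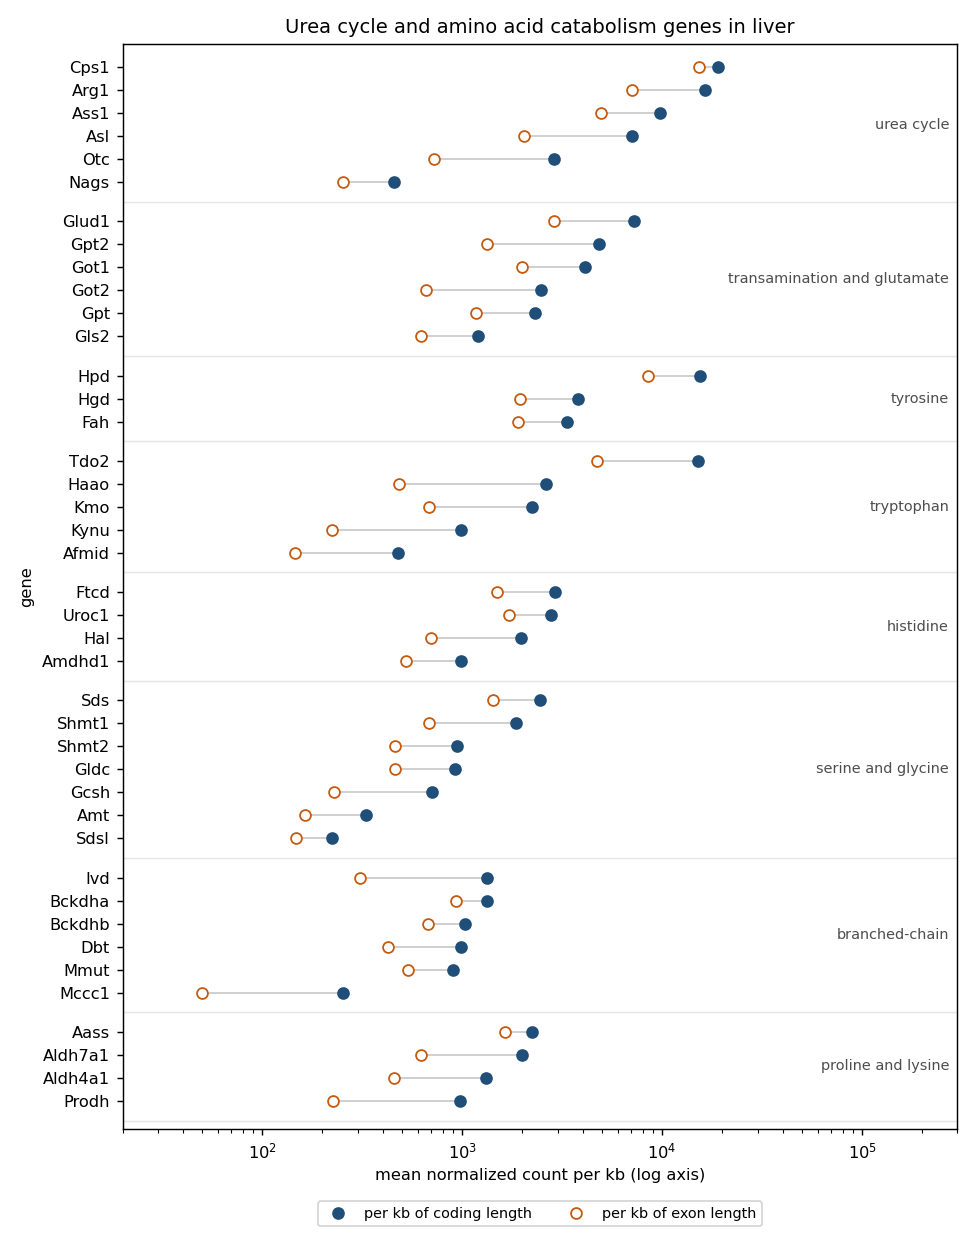
Mean normalized count per kilobase (log axis) of the 41 members, grouped by pathway and ordered within each by the value per kilobase of coding length (filled points), with the value per kilobase of exon length as open points. Per kilobase of coding length the urea cycle spans 454 to 18942, and the branched-chain group spans 254 to 1331.

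Tyrosine and tryptophan breakdown each held a member near the level of the urea cycle enzymes. Hpd, the dioxygenase that makes homogentisate from hydroxyphenylpyruvate, had a mean normalized count of 18132, or 15379 per kilobase of coding length. Hgd, which opens the homogentisate ring, had 3790 per kilobase, and Fah, fumarylacetoacetate hydrolase at the end of the chain, had 3352. Hpd was thus 4.59 times Fah. Of the partner genes, Tat, the transaminase that opens tyrosine breakdown, had the highest level of all 40 listed partners, 23898 per kilobase, above every member on this scale. Per kilobase of exon length Tat had 13534 and Cps1 had 15344. Gstz1, maleylacetoacetate isomerase, had 7885 per kilobase of coding length, above Hgd and Fah. Per kilobase of exon length Gstz1 had 1004, below the 1935 of Hgd and the 1899 of Fah.

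Tdo2, tryptophan dioxygenase, opens the kynurenine pathway, and its level was 15082 per kilobase of coding length. The later members lay lower. Afmid, kynurenine formamidase, had 476 per kilobase, and Tdo2 exceeded it by 31.7 times. Kmo, which hydroxylates kynurenine, had 2234, Kynu, kynureninase, had 983, and Haao, which opens the ring of hydroxyanthranilate, had 2631. Kmo exceeded Haao by count and per kilobase of exon length. Past the members, Acmsd takes the product of Haao toward full breakdown, while Qprt leads toward NAD from quinolinate, which forms from that product without an enzyme. Qprt had 1068 per kilobase and Acmsd 167, close to the median of all listed genes.

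The genes of histidine breakdown were closer together, within a factor of 2.95 per kilobase of coding length. Ftcd, a transferase that hands the formimino group to folate, had 2925. Uroc1, urocanase, had 2791, and Hal, the ammonia lyase that opens the pathway, had 1962. Amdhd1, imidazolonepropionase, was the lowest at 990. By count these genes ran from 1266 for Amdhd1 to 5945 for Uroc1. Uroc1 exceeded Ftcd by count and per kilobase of exon length.

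**Figure D3:**
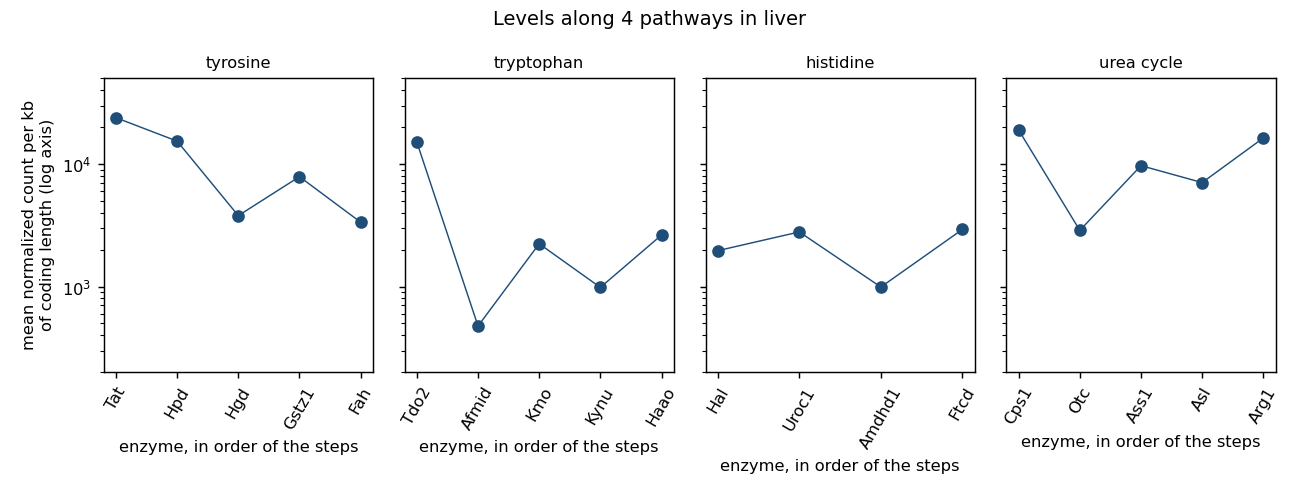
Mean normalized count per kilobase of coding length (log axis) of the enzymes along 4 pathways, in the order of their steps, with lines that only join neighbouring steps. In the tryptophan panel Tdo2 at 15082 stands above the other 4 genes, which lie between 476 and 2631, while the histidine genes lie between 990 and 2925.

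The serine and glycine genes and the branched-chain genes were the least abundant groups among the members. Their medians per kilobase of coding length were 916 and 1014. Sds, the serine dehydratase of liver, had 2456, while Sdsl, its paralog, had 223, the lowest of all 41 members. Shmt1 and Shmt2, the cytosolic and mitochondrial serine hydroxymethyltransferases, had 1857 and 947. The glycine cleavage system is a mitochondrial complex that breaks glycine into carbon dioxide, ammonia and a folate-bound carbon. Its decarboxylase Gldc had 916 per kilobase of coding length, its lipoyl carrier Gcsh 703 and its aminomethyltransferase Amt 330. The ratio of Gldc to Gcsh was 1.30 on this scale, 2.04 per kilobase of exon length and 7.86 by count. The partner Dld, the dehydrogenase that the system shares with other complexes, had 877 per kilobase of coding length. Gnmt, which methylates glycine, was far higher, with 9947 per kilobase. Sardh and Dmgdh, which demethylate sarcosine and dimethylglycine, had 3022 and 1598, and Thnsl2 had 229.

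Of the branched-chain genes, Bckdha, Bckdhb and Dbt encode the core of the dehydrogenase complex that commits branched-chain keto acids to breakdown. Their levels per kilobase of coding length were 1325, 1038 and 989. The order of the last 2 depended on the scale. The ratio of Bckdhb to Dbt was 1.05 per kilobase of coding length, 1.57 per kilobase of exon length and 0.849 by count. Ivd, isovaleryl-CoA dehydrogenase of the leucine branch, had 1331 per kilobase of coding length. Mmut, methylmalonyl-CoA mutase, had 901. Mccc1, the biotin-carrying subunit of methylcrotonyl-CoA carboxylase, had 254, and its partner subunit Mccc2 had 375. The place of Mccc1 depended on the length used. Its merged exons span 10952 bases, and it stood at the 71.8th percentile of listed genes by count, the 61.7th per kilobase of coding length and the 49.0th per kilobase of exon length. Sdsl moved further and the other way, from the 48.4th percentile by count to the 78.0th per kilobase of exon length.

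The partners of this group included the enzymes that switch the complex. Ppm1k, the phosphatase that activates it, had 1427 per kilobase of coding length, and Bckdk, the kinase that inactivates it, had 108, below the median of all listed genes. Bcat2, the mitochondrial branched-chain transaminase, had 251, and Bckdha exceeded it by 5.27 times, or by 12.3 times per kilobase of exon length. Low Bcat2 beside higher Bckdha is a comparison of mean RNA levels and not of enzyme amounts. Aldh6a1, methylmalonate semialdehyde dehydrogenase, had the highest level of the 14 partners, 3834.

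Proline and lysine breakdown was represented by 4 members, with levels from 978 to 2244 per kilobase of coding length. Per kilobase of exon length the span was wider, from 225.5 for Prodh to 1633 for Aass. Aass, which carries out the opening steps of lysine breakdown, had 2244 per kilobase of coding length. Aldh7a1, which acts later in that pathway, had 1994. Aldh4a1, the dehydrogenase shared by proline and hydroxyproline breakdown, had 1322. Prodh, proline dehydrogenase, had 978, and its partner Prodh2, which acts on hydroxyproline, had 1544. Gcdh and Dhtkd1, later in lysine breakdown, had 2749 and 1216.

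Pairs of genes that share a reaction or a complex differed widely in how unequal they were. Tdo2 was 18.9 times Ido2, a dioxygenase of the same reaction, per kilobase of coding length. Sds was 11.01 times Sdsl. The other pairs were closer. Shmt1 was 1.96 times Shmt2, Got1 was 1.66 times Got2, and Bckdha was 1.28 times Bckdhb. Gpt was the lower of its pair, at 0.484 times Gpt2. None of these pairs changed its order when exon length or no length was used. Per kilobase of exon length, however, Gpt rose to 0.882 times Gpt2 and Got1 to 3.03 times Got2. How reads shared by similar paralogs were counted is not known from the table.

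**Figure D4:**
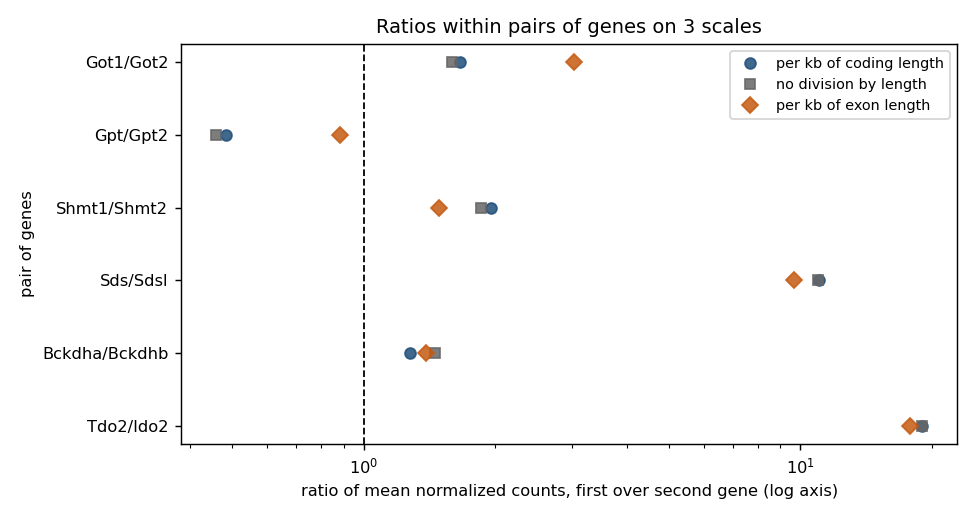
Ratio of the mean normalized counts of the first over the second gene of 6 pairs (log axis), per kilobase of coding length (circles), with no division by length (squares) and per kilobase of exon length (diamonds), with a dashed line at equal levels. Gpt/Gpt2 is the pair left of the line, at 0.484, 0.460 and 0.882, and Tdo2/Ido2 lies farthest to the right, from 17.8 to 19.0.

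The promoters of the members were described from RefSeq windows on GRCm38.p6, which held 30 of the 41 members and 9339 of the listed genes. The members without a window were Cps1, Asl, Arg1, Gpt, Gls2, Kynu, Sds, Sdsl, Dbt, Mmut and Aldh7a1. The 250 bases before the annotated start were searched. The members had a median of 8 CpG dinucleotides there, against 16 over the listed genes with a window and 13 over those in the top 10% by mean normalized count. Among the members, 10 had 5 or fewer CpG dinucleotides, or 33.3%, against 17.8% of listed genes and 28.5% of the top 10%. Uroc1 had 0, and Otc, Hgd and Bckdhb had 1 each. At the other end, Glud1 had 46 and Ass1 23. These shares are a description, and no test was made of them.

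**Figure D5:**
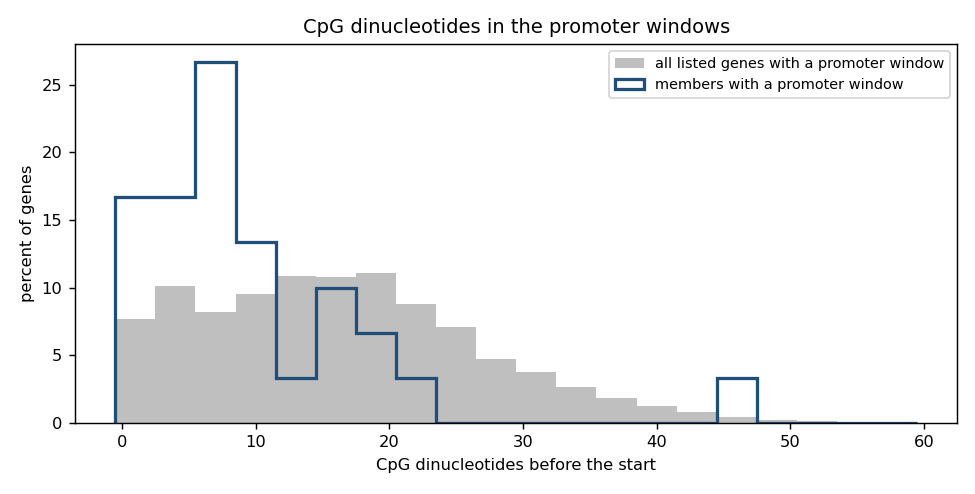
Percent of genes by the number of CpG dinucleotides in the 250 bases before the start, in bins of 3, for the 9339 listed genes with a window (grey) and the 30 members with a window (blue outline). The members' median was 8 and that of all listed genes 16, and Glud1 stands apart at 46.

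The letters TATAA, searched on the strand of the gene between 40 and 16 bases before the start, were found in 2 members, or 6.67%. They were found in 2.41% of the listed genes with a window and in 6.68% of those in the top 10% by count. CCAAT, searched on both strands over the 250 bases, was in 13 members, or 43.3%, against 35.6% of listed genes and 39.1% of the top 10%. Both members with TATAA, Hal and Ftcd, are genes of histidine breakdown. The 80 bases before their starts are shown 5′ to 3′ with these letters in capitals, because they are the only windows among the 30 that hold the match. They lie at chr10:93488688-93488767 (Hal) and chr10:76575568-76575647 (Ftcd), both on the plus strand of GRCm38.p6. The match begins 26 bases before the start in Hal and 29 bases before it in Ftcd.
Hal: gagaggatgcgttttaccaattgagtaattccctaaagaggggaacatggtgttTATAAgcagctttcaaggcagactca
Ftcd: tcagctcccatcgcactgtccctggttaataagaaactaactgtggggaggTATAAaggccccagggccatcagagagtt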

How the data were processed

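Liver RNA libraries were made by the authors with a directional kit after rRNA depletion. Reads were aligned by the authors with STAR 2.5.3a, counted on Ensembl genes, and normalized with DESeq2 (RLE). The genome build and annotation release are not given in the sources used here. The authors deposited, for 11779 genes, a mean normalized count, a signal averaged over the compared liver libraries and not divided by gene length. The table also holds the authors' log2 fold changes, standard errors, Wald statistics and p-values, which are their own comparison and were not used. The number of value columns for single samples was 0, so depth and spread are unknown and no test was made.

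Coding length (longest coding sequence) and exon length (merged exons) came from GENCODE release M21, matched by Ensembl identifier for 11384 and 11754 listed genes. Percentiles, shares and ratios were computed with Python 3.11.15, numpy 2.4.6 and pandas 2.3.3, and checked on simulated levels. Figures were drawn with matplotlib 3.10.9. All members are named, with partner genes from a list of 42, of which 40 were listed, and marker genes. Some items are not reported here. Members and lists were chosen with earlier results of these data known.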

Additional observations from a re-analysis of the deposited data

How the results depend on the processing

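No paired analysis was possible because the table holds no values for single mice, and for the same reason no replicate could be left out. The count of members in the top 10% of listed genes, 30, became 27 per kilobase of coding length, 32 per kilobase of exon length and 30 when only genes with a mean of 50 or more were ranked. The median percentile of the members, 95.5, became 94.3, 94.8 and 94.7 under the same settings. The members' share of the summed level, 2.31%, became 1.94% without the 10 most abundant genes, which include Cps1, and 1.81% per kilobase of coding length.

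With no division by length, the ratios were 1.60 for Got1/Got2, 0.460 for Gpt/Gpt2, 1.86 for Shmt1/Shmt2, 10.9 for Sds/Sdsl, 1.46 for Bckdha/Bckdhb and 19.0 for Tdo2/Ido2. Per kilobase of exon length they were 3.03, 0.882, 1.49, 9.67, 1.39 and 17.8 in the same order. None of these ratios turned its direction. The 20 alternative values also include the counts, percentiles and shares above, which have no direction to turn. Merged exons count every annotated transcript, so long or rare untranslated ends lower a level on that scale. Reads were counted on genes and not on coding sequence alone, so division by coding length raises genes with long untranslated ends. Otc, for example, has 1062 coding bases and 4241 bases of merged exons. The pair of Arg1 and Arg2 was planned and not computed, since Arg2 is not among the genes analysed here.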
